A study of Mus musculus with 7 samples.

Results

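Desmosomal cadherins and plakophilins were compared between the mouse digit blastema and the uninjured digit. The members were chosen by gene symbol, 10 in all: the desmogleins Dsg1a, Dsg1b, Dsg2 and Dsg3, the desmocollins Dsc1, Dsc2 and Dsc3, and the plakophilins Pkp1, Pkp2 and Pkp3. All 10 were measured, of 22180 genes in all, each by the brightest probe set that lists 1 gene symbol. The 2 groups were uninjured digits of C57Bl/6 mice (n = 4) and blastemas of C57Bl/6 mice taken 2 weeks after amputation (n = 3). A blastema is the mass of cells that forms at an amputated digit tip. The labels call the samples of each group biological replicates and give no age, sex, batch or position of amputation, and they do not say whether each came from a separate animal or whether the wound epidermis was kept on the blastema. The study's title places Schwann cell precursors at the centre of digit tip regeneration, and the arrays set its blastema beside intact tissue.

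Desmosomes are spot-like junctions that hold epithelial cells together and anchor their keratin filaments. Desmogleins and desmocollins are the transmembrane cadherins that bind across the gap between cells. Plakophilins and plakoglobin bind their tails inside the cell, and desmoplakin links this plaque to keratin. In skin the isoforms are layered: desmoglein 1 and desmocollin 1 are typical of the outer, differentiating layers, desmoglein 3 and desmocollin 3 of the basal and lower layers, while desmoglein 2, desmocollin 2 and plakophilin 2 are the isoforms of simple epithelia and heart. In the mouse the desmoglein 1 gene is present as the close copies Dsg1a, Dsg1b and Dsg1c. The RefSeq gene table places the 7 cadherin members together on chromosome 18, Pkp1 on chromosome 1, Pkp2 on chromosome 16 and Pkp3 on chromosome 7.

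Dsg1a and Pkp3 fell in the blastema, by 1.47-fold and 1.53-fold, and the other 8 members did not pass the test. By limma with Benjamini-Hochberg adjustment over all genes, 2 of 10 members were lower and 0 were higher, against 4.66% of all genes lower and 4.98% higher. At an unadjusted p of 0.05, 3 members were lower (Dsg1a, Dsg1b and Pkp3) and 1 was higher (Dsc2). Of all 22180 genes, 2822 were lower and 2705 higher at this threshold, which is 24.9% in either direction. In 3 members, Dsg1a, Dsg1b and Pkp3, every blastema array lay below every uninjured array, an arrangement found in 10.6% of all genes. In 0 members did every blastema array lie above, against 10.4% of all genes. The median log2 fold change of the members was -0.08, beside -0.0054 over all genes, with a range of -0.75 to 0.41. Scaling each array to 8 measured reference genes moved the median of all genes to -0.15 and the higher share of called genes from 51.7% to 27.1%, and scaling to keratinocyte markers moved that share to 66.6%. The reference genes themselves had a median log2 fold change of 0.15, with 1 of 8 negative. Gapdh was called higher, and in 3 every blastema array lay above every uninjured array. Scaling to the reference genes thus also subtracts this difference between the groups. In bulk tissue, fewer cells of a type and less RNA per cell cannot be told apart.

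The desmogleins of the outer epidermis had the lowest values relative to the uninjured digit among the cadherins. Dsg1a had log2 levels of 11.23, 11.66, 11.80 and 11.73 on uninjured arrays 1 to 4 and of 11.13, 11.06 and 10.94 on blastema arrays 1 to 3. The groups did not overlap, although uninjured array 1 lay only slightly above the blastema arrays. The group means were 11.60 ± 0.25 (SD, n = 4) and 11.04 ± 0.09 (SD, n = 3). The log2 fold change was -0.56 ± 0.14 (SE; 95% interval -0.89 to -0.23; limma adjusted p = 0.048). The level in the blastema was thus 0.678 of that in the uninjured digit.

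Dsg1b had levels of 9.79, 10.31, 10.59 and 10.29 in uninjured digit and 9.70, 9.54 and 9.23 in blastema. It showed the same arrangement as Dsg1a, with uninjured array 1 lowest of its group and blastema array 1 highest of its group. Its log2 fold change was the largest in size of the 10 members, -0.75 ± 0.19 (SE; 95% interval -1.21 to -0.30), and just missed the threshold (limma adjusted p = 0.0541). The difference between Dsg1a and Dsg1b in passing the test was not itself tested. The third copy, Dsg1c, a listed partner and not a member, also fell (log2 fold change -0.58 ± 0.13 SE, limma adjusted p = 0.0317). Its means of 5.01 and 4.44 were both below the background proxy of 5.51, a level that 95% of 1088 olfactory receptor genes do not exceed, which served as a stand-in for unexpressed genes. Whether the probe sets of these close copies respond to each other's RNA was not tested, and their values may not be independent.

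The calls of Dsg1a and Pkp3 were near the threshold and changed when single arrays were left out. Dsg1a lost its call when uninjured array 2, 3 or 4 was omitted (limma adjusted p = 0.123, 0.118 and 0.122) and when blastema array 1, 2 or 3 was (0.0803, 0.136 and 0.172). It passed without uninjured array 1 (0.00744), and its log2 fold change over the 7 omissions ranged from -0.68 to -0.49. Dsg1b passed without uninjured array 1 (0.0198). In the whole data set uninjured array 1 and blastema array 1 stood apart from the other 5 on the axis with the next largest variance (14.3%). With both left out, Dsg1a had a log2 fold change of -0.73 (limma adjusted p = 0.0136), Dsg1b of -1.01 (0.0247), Pkp3 of -0.72 (0.0207) and Dsc2 of 0.58 (0.0328), so that 3 members were lower and 1 was higher.

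**Figure D1:**
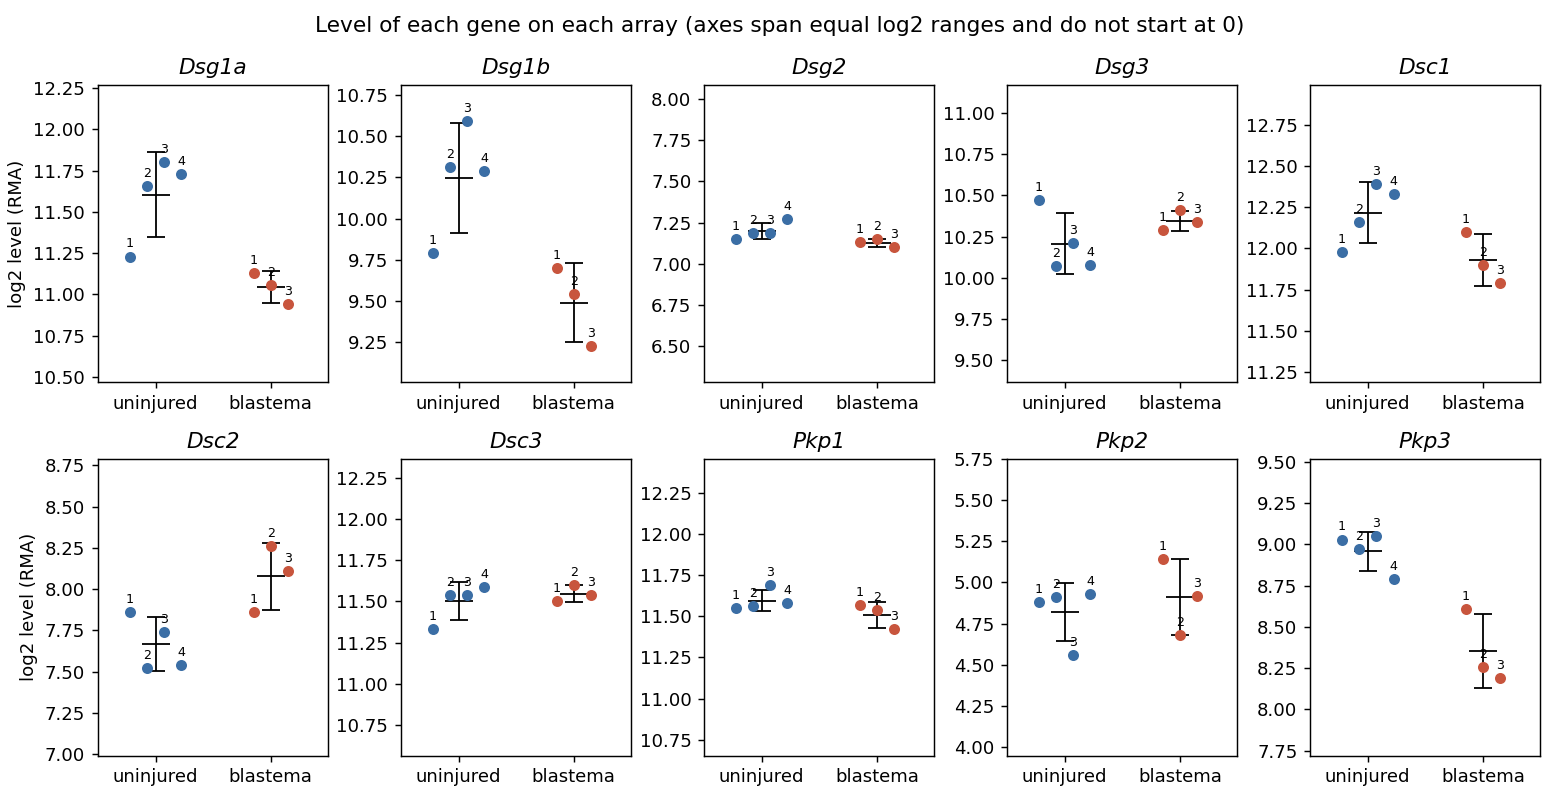
Log2 level (vertical axis) of each of the 10 genes on each array, by group (horizontal axis); each point is 1 array with its replicate number, and the bar is the mean ± SD (n = 4 uninjured, n = 3 blastema). The vertical axes have equal spans and do not start at 0. Blastema points lie below all uninjured points for Dsg1a, Dsg1b and Pkp3. Uninjured array 1 is lowest of its group for Dsg1a, Dsg1b, Dsg2, Dsc1, Dsc3 and Pkp1.

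Dsc1, the desmocollin of the outer layers, had levels of 11.98, 12.16, 12.39 and 12.33 in uninjured digit and 12.10, 11.90 and 11.79 in blastema. The groups overlapped because blastema array 1 lay above uninjured array 1. The log2 fold change was -0.28 ± 0.12 (SE; 95% interval -0.56 to 0.00077; limma adjusted p = 0.202). Dsc1 did not pass in any of the 17 alternative settings that were run, and its limma adjusted p was lowest, 0.0543, without both arrays numbered 1.

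The cadherins of the lower layers had small positive differences that did not pass, and that of Dsc3 turned negative with reference gene scaling (-0.093) and without uninjured array 1 (-0.0096), while that of Dsg3 was 0.00057 with reference gene scaling. Dsg3, the basal desmoglein, had levels of 10.47, 10.07, 10.21 and 10.08 in uninjured digit and 10.29, 10.41 and 10.34 in blastema. Uninjured array 1 was the highest of all 7 arrays, so the groups overlapped (log2 fold change 0.14 ± 0.11 SE, 95% interval -0.11 to 0.39, limma adjusted p = 0.465). Dsc3, its desmocollin counterpart, had levels of 11.33, 11.54, 11.54 and 11.59 in uninjured digit and 11.50, 11.60 and 11.54 in blastema. Its log2 fold change was 0.048 ± 0.079 (SE; 95% interval -0.14 to 0.23; limma adjusted p = 0.755). Uninjured arrays 2 and 3 shared their value with blastema array 3, and uninjured array 1 was the lowest.

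Dsc2 was the member with the largest positive difference. Dsc2 had levels of 7.86, 7.52, 7.74 and 7.54 in uninjured digit and 7.86, 8.26 and 8.11 in blastema. Blastema array 1 shared the value of uninjured array 1, and the other blastema arrays lay above all uninjured arrays. The means were 7.67 ± 0.16 (SD, n = 4) and 8.08 ± 0.20 (SD, n = 3), and the log2 fold change was 0.41 ± 0.12 (SE; 95% interval 0.12 to 0.70; limma adjusted p = 0.0872). Dsc2 passed without blastema array 1 (0.0486) and in 5 of the 17 alternative settings in all. Dsg2, the other cadherin typical of simple epithelia, lay between 7.15 and 7.27 in uninjured digit and between 7.10 and 7.15 in blastema (log2 fold change -0.072 ± 0.057 SE, limma adjusted p = 0.488). A dimmer probe set of Dsg2, with means of 4.91 and 5.12, both below the background proxy, gave a difference of the opposite sign (0.21 ± 0.091 SE, adjusted p = 0.208).

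**Figure D2:**
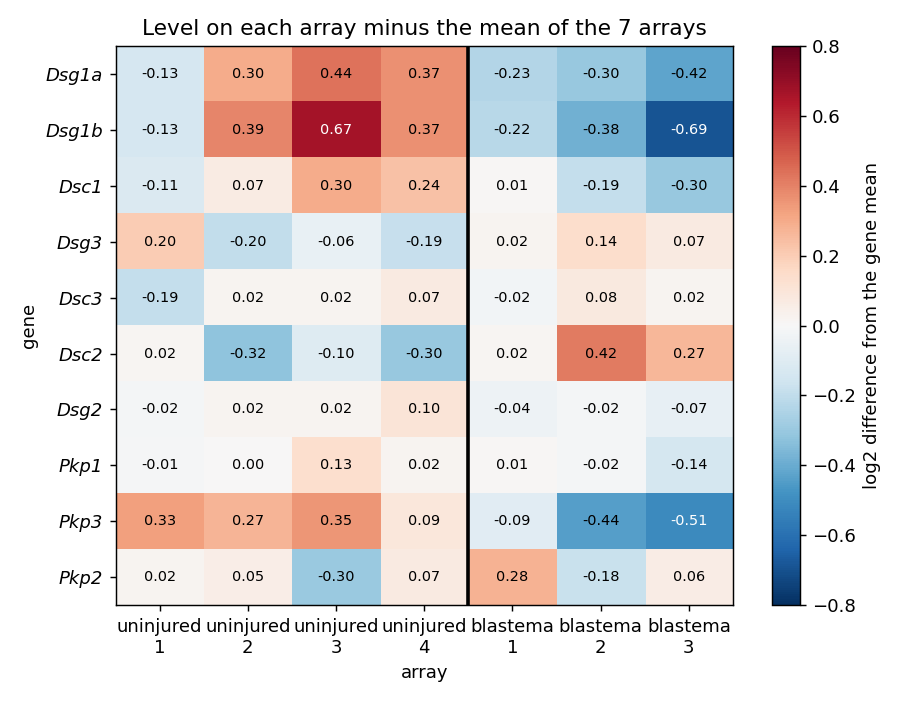
Log2 level of each gene (rows) on each array (columns) minus that gene's mean over the 7 arrays; red is above and blue below the mean, and the vertical line parts the 4 uninjured from the 3 blastema arrays. Dsg1a, Dsg1b, Dsg2, Dsc1 and Dsc3 are above their means on uninjured arrays 2, 3 and 4 and below them on uninjured array 1. Dsg3 and Dsc2 are below their means on uninjured arrays 2, 3 and 4.

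Of the plakophilins, Pkp3 fell and the others did not pass. Pkp3, a plaque protein present through all layers of the epidermis, had levels of 9.03, 8.97, 9.05 and 8.79 in uninjured digit and 8.61, 8.26 and 8.19 in blastema. All blastema arrays were lower, and uninjured array 1 did not stand apart from its group here. The means were 8.96 ± 0.12 (SD, n = 4) and 8.35 ± 0.23 (SD, n = 3), and the log2 fold change was -0.61 ± 0.12 (SE; 95% interval -0.89 to -0.34; limma adjusted p = 0.0204), or 0.654 of the uninjured level. Pkp3 lost its call when uninjured array 2 or 3 (0.0627 and 0.0655) or blastema array 2 or 3 (0.0856 and 0.0834) was omitted.

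Pkp1, the plakophilin that strengthens desmosomes of the outer epidermis, had levels of 11.55, 11.56, 11.69 and 11.58 in uninjured digit and 11.57, 11.54 and 11.42 in blastema. The groups overlapped, and the interval of its log2 fold change was narrow (-0.087 ± 0.067 SE, 95% interval -0.24 to 0.069, limma adjusted p = 0.469). Pkp2, the plakophilin of heart and simple epithelia, had means of 4.82 ± 0.17 (SD, n = 4) and 4.91 ± 0.23 (SD, n = 3), both below the background proxy. Low signal therefore limits its comparison (log2 fold change 0.093 ± 0.13 SE, limma adjusted p = 0.719). The other 9 members were above the proxy. Of 5 skeletal and heart muscle markers 0 passed by limma (1 at an unadjusted p of 0.05), and 2 of the 5 were above the proxy.

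The changes of partner isoforms were set side by side within arrays for 4 pairs, chosen after their values were seen and so given as a description with no test. The quantity is the difference of the log2 levels of a pair on each array, and only its change between groups is read. For Pkp3 minus Pkp1 the difference went from -2.63 ± 0.11 (SD, n = 4) to -3.16 ± 0.17 (SD, n = 3) in the blastema, without overlap of the groups. For Dsc1 minus Dsc3 the difference moved by -0.33, without overlap but narrowly so. The lowest uninjured value was 0.61 (array 2) and the highest blastema value 0.60 (array 1). For Dsg1a minus Dsg3 it moved by -0.70 and for Dsc1 minus Dsc2 by -0.69, both with overlap. In both of the last pairs uninjured array 1 lay among the blastema arrays, at 0.77 and 4.11, while the other uninjured arrays lay at 1.59 to 1.65 and 4.63 to 4.79. Without both arrays numbered 1 the 4 pairs moved by -0.58, -0.46, -0.98 and -1.02, in the order given. Whether the isoforms differ in their response was not tested.

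Among the listed desmosome partners, Evpl, Ppl, Perp and Dsg1c fell, and the plaque genes Dsp and Jup did not pass. Of 10 partners measured 4 fell and 0 rose by limma (at an unadjusted p of 0.05, 5 and 0), with a median log2 fold change of -0.13. Low signal limits the comparison of Dsg1c, and of the 9 partners above the background proxy 3 fell. The count of 4 became 1 with blastema array 2 or 3 omitted, 2 with uninjured array 2 or 3 omitted and 1 to 3 over the 7 omissions. Dsp, which encodes desmoplakin, lay between 12.38 and 12.51 in uninjured digit and between 12.44 and 12.49 in blastema (log2 fold change 0.0075 ± 0.059 SE, limma adjusted p = 0.955). Jup, which encodes plakoglobin, had levels of 9.87, 9.76, 9.87 and 9.87 in uninjured digit and 10.06, 9.93 and 9.88 in blastema (0.11 ± 0.067 SE, limma adjusted p = 0.347). Evpl, the gene of envoplakin, a plakin of the cornified envelope, had levels of 8.32, 8.15, 8.34 and 8.04 in uninjured digit and 7.51, 7.52 and 7.20 in blastema. It fell by 0.80 on the log2 scale (SE 0.11, limma adjusted p = 0.00712) and passed in all 7 omissions of 1 array. Its binding partner periplakin, encoded by Ppl, fell as well (-0.47 ± 0.080 SE, limma adjusted p = 0.0132), but not without blastema array 2 or 3 (0.0561 each). Perp, a membrane protein of desmosomes, fell slightly, from 12.63 ± 0.02 (SD, n = 4) to 12.38 ± 0.07 (SD, n = 3), with a limma adjusted p of 0.0369. Perp did not pass in any of the 7 omissions (0.0509 to 0.112), and Dsg1c lost its call with uninjured array 2 or 3, or any of the blastema arrays, omitted (0.0542 to 0.119). With keratinocyte marker scaling Perp and Dsg1c did not pass either (0.167 and 0.0674). Ppl was named after its values were seen.

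**Figure D3:**
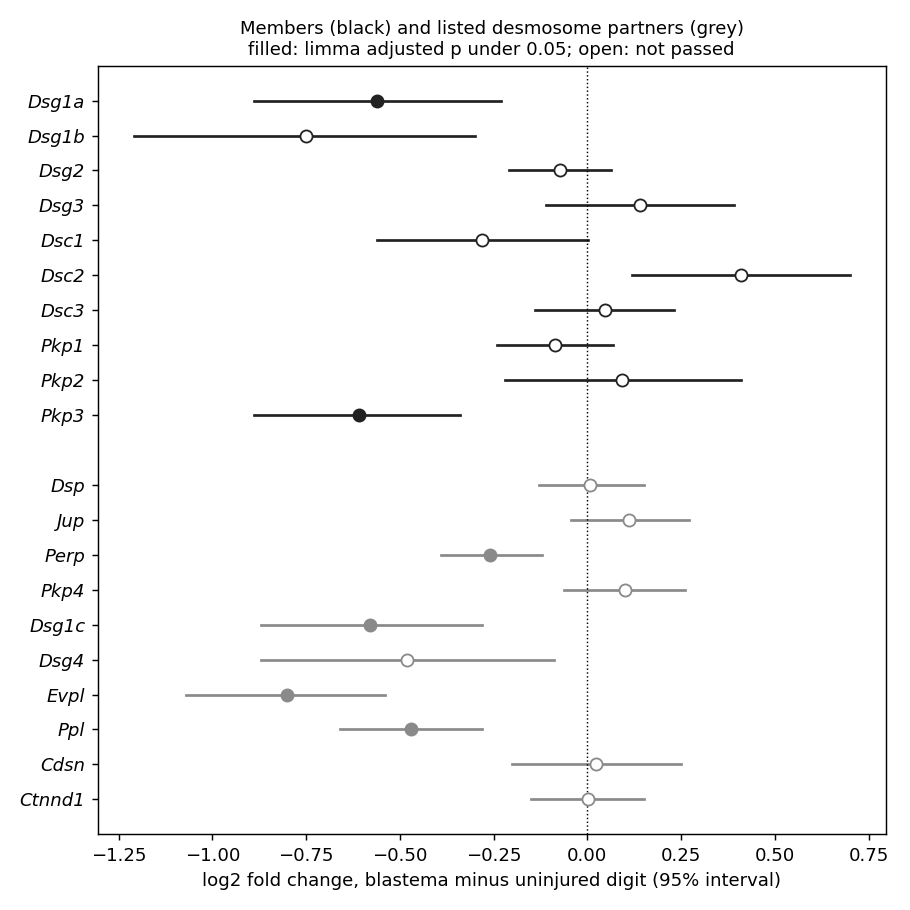
Log2 fold change, blastema minus uninjured digit (horizontal axis), of the 10 members (black) and the 10 listed partners (grey); points are limma estimates, lines their 95% intervals, and filled points passed an adjusted p of 0.05. Dsg1a and Pkp3 are the filled members, and Perp, Dsg1c, Evpl and Ppl the filled partners.

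Neighbouring junction genes went both ways. Of 10 adherens junction genes 2 rose and 1 fell (median log2 fold change -0.0068). Cdh3, the placental cadherin of basal and hair follicle keratinocytes, rose from 7.47 ± 0.11 (SD, n = 4) to 8.16 ± 0.15 (SD, n = 3), with a limma adjusted p of 0.00672. Vcl, which encodes the actin linker vinculin, rose too (0.86 ± 0.13 SE, limma adjusted p = 0.00861). Cdh1, the epithelial cadherin gene, had a log2 fold change of -0.27 ± 0.075 (SE), with no overlap of the groups, and did not pass (limma adjusted p = 0.0678). It passed as lower in 5 of the 17 alternative settings, and with the mean of all its probe sets the log2 fold change was -0.49 (limma adjusted p = 0.0153). Of 4 cadherins of mesenchyme and vessels 3 rose, led by Cdh11 of osteoblasts and fibroblasts (3.02 ± 0.28 SE, limma adjusted p = 0.00209) and the neural cadherin gene Cdh2 (2.78 ± 0.21 SE, limma adjusted p = 0.0014). The third, the vessel cadherin gene Cdh5, lost its call with uninjured array 1, 3 or 4, or with blastema array 2 or 3, omitted (0.0553 to 0.0903).

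Of the keratins that attach to desmosomes, 3 of 11 measured fell and 2 rose (median log2 fold change -0.083), but 1 fell and 1 rose with uninjured array 2, 3 or 4 or blastema array 2 omitted, and 1 rose with blastema array 1 omitted. Krt9, the keratin of foot pad skin, fell most (-4.11 ± 0.52 SE, limma adjusted p = 0.00512), and Krt2 of the upper epidermis followed (-2.69 ± 0.52 SE, limma adjusted p = 0.0206). The call of Krt2 was lost with uninjured array 2, 3 or 4, or with blastema array 2, omitted (0.0508 to 0.0683). Krt14, the basal keratin, differed by -0.083 (limma adjusted p = 0.679), and Krt1 and Krt10, the main keratins of the differentiating layers, by -0.17 and -0.18 (limma adjusted p = 0.267 and 0.155). Krt5 was not analysed here.

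Genes of the proteases that cut desmosomal proteins as cells are shed, and of their inhibitors, were lower where they passed. Of 12 measured 4 fell and 0 rose by limma (median log2 fold change -0.25). The 4 were 2 proteases and 2 inhibitors. At an unadjusted p of 0.05, 7 were lower and 2 higher, the latter Klk6 and Adam10, named after their values were seen. With blastema array 2 or 3 omitted the count that fell was 2. Klk5, a kallikrein protease that digests desmoglein 1, had levels of 10.14, 10.39, 10.59 and 10.34 in uninjured digit and 9.29, 9.04 and 9.26 in blastema (-1.17 ± 0.12 SE, limma adjusted p = 0.00273). Klk8, another kallikrein, fell by 0.88 on the log2 scale (SE 0.11, limma adjusted p = 0.005). The inhibitors that fell were Spink5, against kallikreins, and Cst6, against cathepsins, both named after their values were seen. Spink5 lost its call with uninjured array 2, 3 or 4, or with blastema array 2 or 3, omitted (0.0586 to 0.096) and with keratinocyte marker scaling (0.0715), and Cst6 with blastema array 2 or 3 omitted (0.0633 and 0.0662).

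Of 16 measured regulators of desmosome genes and assembly, 3 fell and 2 rose (median log2 fold change 0.0029). The count that fell was 0 with any uninjured array or blastema array 3 omitted and 1 with blastema array 2 omitted, and the count that rose was 1 with uninjured array 4 or blastema array 2 or 3 omitted. Grhl1, a transcription factor known to act on desmoglein 1 genes, had levels of 9.86, 9.60, 9.72 and 9.58 in uninjured digit and 9.37, 9.14 and 8.98 in blastema. It fell by 0.52 on the log2 scale (SE 0.11, limma adjusted p = 0.0291), and passed in 1 of 7 omissions, that of blastema array 1 (without the others, 0.0559 to 0.103). Snai2, a repressor of epithelial cadherin genes, rose (1.24 ± 0.17 SE, limma adjusted p = 0.0068), as did the mesenchymal factor gene Twist1 (0.72 ± 0.15 SE, limma adjusted p = 0.0258). Twist1 lost its call with uninjured array 4, or any blastema array, omitted (0.0518 to 0.109) and with reference gene scaling (0.054). Trp63, the master factor gene of stratified epithelia, differed by 0.071 (limma adjusted p = 0.484).

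Some lists of cell type markers moved with the groups and others did not, and their part in the results was not tested. Of 9 measured pan-keratinocyte markers 1 fell, Lgals7, and 0 rose by limma (at an unadjusted p of 0.05, 2 and 0), with array means of 9.17 to 9.33 in uninjured digit and 9.12 to 9.21 in blastema. Of 11 measured suprabasal and cornified markers 9 fell (10.89 to 11.04 against 10.20 at most), or 5 with uninjured array 4 or blastema array 2 omitted and 5 to 7 over the 7 omissions. Of 4 wound keratinocyte markers 2, Krt6a and Krt6b, rose (11.47 to 11.63 against 11.79 to 11.96), Krt6b not with reference gene scaling (0.167). Of 4 mesenchyme markers 3 rose (7.78 to 8.75 against 10.03 to 10.62), as did 2 of 4 endothelial and 3 of 4 macrophage markers. The mesenchyme count was 2 with blastema array 2 or 3 omitted and 4 with blastema array 1 omitted. The endothelial count was 0 with uninjured array 1, 3 or 4 or blastema array 2 or 3 omitted and 1 with uninjured array 2 omitted, and the macrophage count was 1 with uninjured array 3 or 4 or blastema array 2 or 3 omitted. Of 5 basal keratinocyte, 5 sweat gland and simple epithelium, and 7 nail and hair markers 1 each fell (Krt15, Aqp5 and Krt35) and 0 rose by limma (at an unadjusted p of 0.05, 1, 0 and 0 were higher), and of 4 melanocyte and 3 mast cell markers 0 passed by limma (at an unadjusted p of 0.05, 0 and 1). Among the 7 omissions of 1 array, Krt15 kept its call only with uninjured array 1 omitted (otherwise 0.0588 to 0.105). Krt6b kept its call among these only with uninjured array 1 or blastema array 3 omitted (otherwise 0.0565 to 0.088). Krt35 lost its call with uninjured array 2 or blastema array 2 or 3 omitted (0.0809 to 0.112). On uninjured array 1 the mean of the suprabasal and cornified list stood 0.32 above its mean over the arrays, against 0.33 to 0.47 on the other uninjured arrays. The mean of Dsg1a, Dsg1b and Dsc1, a grouping outside the chosen lists, stood at -0.12, against 0.25 to 0.47. Why uninjured array 1 differed was not tested. Uninjured array 1 stood apart in other epithelial lists too, at 0.01 against 0.38 to 0.45 for the epidermal keratins, 0.037 against 0.10 to 0.26 for the basal markers and 0.39 against -0.059 to 0.12 for the nail and hair markers. For the pan-keratinocyte markers it stood at 0.13, against -0.028 to 0.014 on the other uninjured arrays and -0.078 to 0.0061 on the blastema arrays. A shift to that list therefore moved uninjured array 1 most. When each array was shifted to the mean of the pan-keratinocyte markers, Pkp3 stayed lower (-0.55, limma adjusted p = 0.0193), Dsg1a no longer passed (-0.50, limma adjusted p = 0.0937) and Dsc2 passed as higher (0.47, limma adjusted p = 0.0314).

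**Figure D4:**
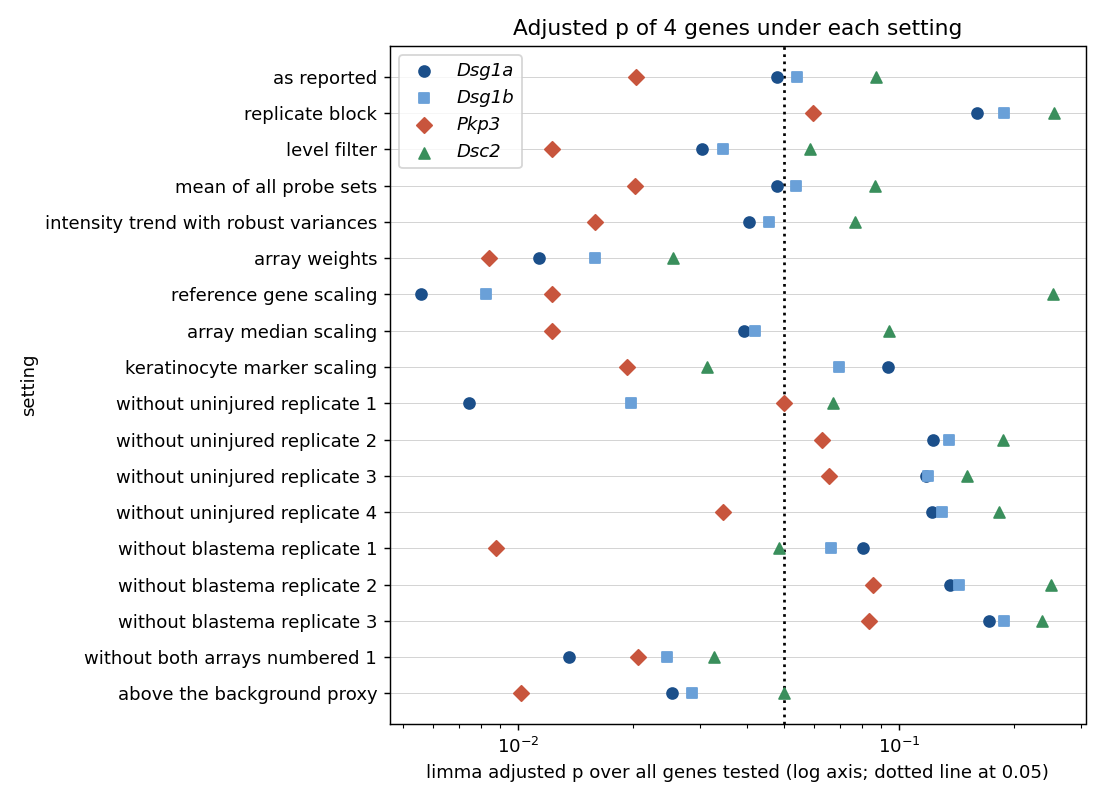
Limma adjusted p (horizontal log axis, dotted line at 0.05) of Dsg1a, Dsg1b, Pkp3 and Dsc2 as reported and under each of the 17 alternative settings (vertical axis). Pkp3 passed in 12 of the 17, Dsg1a in 9, Dsg1b in 8 and Dsc2 in 5. The settings are not independent of each other.

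The genes whose profiles over the 7 arrays lay nearest to those of Dsg1a and Pkp3 were sought. Nearness was the mean absolute difference of profiles, each centred on its own mean. Members were left out of this search, as were predicted genes, clones, olfactory and vomeronasal receptor genes, pseudogenes and small RNA genes. Nearest to Dsg1a were Rdh12 (0.0428 on the log2 scale), a retinol dehydrogenase gene, Tmem45a (0.0446), a gene of the upper epidermis, and Sgpp1 (0.0533), a sphingosine phosphate phosphatase gene. None of these passed (limma adjusted p = 0.0522, 0.0621 and 0.0817, in the order given). Rdh12 had levels of 8.57, 9.0, 9.15 and 9.02 in uninjured digit and 8.46, 8.32 and 8.43 in blastema, with uninjured array 1 lowest of its group. This likeness to Dsg1a, and the near-threshold adjusted p of the 3 genes, follow from how they were chosen. Nearest to Pkp3 were Kctd5 (0.0316), Endou (0.032) and Nectin4 (0.0338), the last an adhesion molecule gene of the adherens junction list. Nectin4 had levels of 8.54, 8.48, 8.55 and 8.35 in uninjured digit and 8.16, 7.69 and 7.64 in blastema. It fell (-0.65 ± 0.13 SE, limma adjusted p = 0.024), but passed in only 1 of 7 omissions, that of blastema array 1 (without the others, 0.0501 to 0.0973). A fall like that of Pkp3 follows from how Nectin4 was chosen here.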

How the data were processed

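Total RNA (400 ng per sample) was made into biotin-labelled cDNA for 1-colour arrays, as the labels' protocols state. The authors deposited log2 values, made with oligo and RMA per the submitters' processing notes. The sources used here give no version, setting or array build. Each array holds 41345 probe sets, with array medians of 5.53 to 5.58. In 44.7% of probe sets at least 2 arrays share a value. Arrays have no read depth, and their number limits the precision.

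Probe sets with 1 symbol (23521) gave 22180 genes, by the brightest probe set over the 7 arrays. Blastema was compared with uninjured digit by limma 3.58.1 (R 4.3.3; lmFit, eBayes, no covariate), adjusted by Benjamini-Hochberg over all genes, at 0.05. The fit was tested on simulated data. Alternatives were a replicate block, a level filter that drops the dimmest 30% of genes, averaging of a gene's probe sets, array weights, robust variances with an intensity trend, 3 scalings (reference genes, array median, keratinocyte markers), omission of each array, and 2 settings added after the data were seen (both arrays numbered 1 left out, genes above the background proxy). The proxy itself was chosen after the data were seen. Members and lists were chosen with earlier results of these data known. Of each list of partners, junction genes and regulators, the 2 called genes with the largest changes are named, plus Dsp, Jup, Perp, Cdh1, Krt14, Krt1, Krt10, Grhl1 and Trp63. Cell type lists are given mainly as counts. Other genes were named after their values were seen. Figures used Python 3.11.15 and matplotlib 3.10.9.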

Additional observations from a re-analysis of the deposited data

Results flagged for a closer look

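Pkp2 on uninjured array 3 had a level of 4.56, while the other uninjured arrays lay at 4.88 to 4.93, a gap of 0.857 of the group's range. It stood farther from the others than the 95% limit for 4 samples (0.829). Of 10 such groups tested, chance would set apart about 1 in 20, and this gene lies below the background proxy on every array.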

How the results depend on the processing

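Of 17 alternative settings, Pkp3 kept its call in 12 and Dsg1a in 9, and Dsg1a, Dsg1b, Dsg3, Dsc1, Dsc2, Pkp1 and Pkp3 kept their direction in all that were run, although Dsg3 was at 0.00057 with reference gene scaling. The settings are not independent checks. Pkp3 and Dsg1a have 1 probe set each, so averaging of probe sets left their values as they were. The level filter and the proxy filter mainly changed the number of genes in the adjustment. The numbers of members lower and higher, 2 and 0 as reported, became 1 and 1 with keratinocyte marker scaling, and 1 member was higher with array weights, above the background proxy and without both arrays numbered 1, the last 2 chosen after the data were seen. Over the omissions of 1 array they ranged from 0 to 3 and from 0 to 1. All genes lower and higher (1034 and 1105) ranged from 365 to 1009 and from 457 to 1286 over these omissions, with 1968 and 732 under reference gene scaling and 667 lower under keratinocyte marker scaling. Listed partners, junction genes and regulators (15 lower and 9 higher of 62) ranged from 5 to 12 and from 6 to 10. The deviations of equal replicate numbers correlated at 0.286, 0.151 and -0.065 across genes. Blastema arrays 1 and 2 correlated best with the uninjured array of their own number, and blastema array 3 with uninjured array 4. So few correlations cannot decide whether equal numbers share an animal or a batch. The labels state no pairing, so the numbers were not taken as pairs. With the replicate block, which leaves out the information of uninjured array 4, 0 members were lower, 304 genes were lower and 295 higher, and 4 listed genes were lower and 4 higher (Pkp3 -0.67, limma adjusted p = 0.0596, and Dsg1a -0.52, limma adjusted p = 0.16). Signs turned for Dsg2 with the mean of its probe sets (0.069) and with its other probe set (0.21), for Dsc3 with reference gene scaling (-0.093) and without uninjured array 1 (-0.0096 to 0.077 over the omissions of 1 array), and for Pkp2 with reference gene scaling (-0.047), without blastema array 1 (-0.021 to 0.21 over these omissions) and without both arrays numbered 1 (-0.0026), none of them past the threshold. Fewer samples remain when an array is left out. The cause of the other changes was not tested. Signal near background limits Pkp2, and Pkp2 has no value with the level filter or the proxy filter.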
